A study of Homo sapiens with 12 samples.

Results

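Reelin (RELN), its lipoprotein receptors VLDLR and LRP8, and the cytoplasmic adaptors DAB1 and DAB2 were taken by gene name from a table of read counts, which gave 5 members of 19973 genes. RELN was chosen by its read counts, for falling in both comparisons of the series, so its values are a description and carry no test. The other 4 members were taken for their place in the same pathway.

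RNA sequencing covered 12 libraries of human prostate cancer cell lines, in 4 groups of 3 replicates. C4-2 lv-ARv7 cells carried a lentivirus expressing ARv7, and C4-2 lv-control cells carried the vector control. 22Rv-1 lv-shARv7 cells carried a short hairpin against ARv7, and 22Rv-1 lv-shcontrol cells carried the hairpin control. All 4 groups were infected with lentivirus and selected with puromycin, so no uninfected cells entered a comparison. ARv7 is a transcript variant known from prostate cancer. C4-2 is a castration-resistant line derived from LNCaP, and 22Rv-1 comes from the CWR22R xenograft and makes ARv7 itself. The sources used here do not give how many selected lines stand behind each group. P-values thus cover the spread between replicate libraries alone, and selected line and group cannot be told apart.

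Reelin is a large secreted glycoprotein best known from the developing brain, where it sets the position of migrating neurons. It binds VLDLR and LRP8 (also called ApoER2), and the clustered receptors recruit DAB1, which SRC-family kinases then phosphorylate. DAB2 also binds the tails of this receptor family and couples them to clathrin-mediated uptake. Outside the brain reelin is made by lymphatic endothelium and liver cells, and it has been described in prostate cancer. The human RELN promoter lies in a CpG island, and its DNA methylation is known to go with silencing of the gene.

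The promoters of the 3 members that were detected in every library are shown for their CpG content, the sequence feature for which RELN is known. Each is the 250 bases before the RefSeq start of the gene, on the gene's strand, 5′ to 3′, build GRCh38.p14, with CpG dinucleotides in capitals. The RELN window lies at chr7:103989659-103989908 on the minus strand, that of VLDLR at chr9:2621537-2621786 on the plus strand and that of LRP8 at chr1:53328071-53328320 on the minus strand. In the table of read counts the LRP8 gene spans chr1:53242364-53328469. By that span the LRP8 window lies within the gene and not before it.
RELN: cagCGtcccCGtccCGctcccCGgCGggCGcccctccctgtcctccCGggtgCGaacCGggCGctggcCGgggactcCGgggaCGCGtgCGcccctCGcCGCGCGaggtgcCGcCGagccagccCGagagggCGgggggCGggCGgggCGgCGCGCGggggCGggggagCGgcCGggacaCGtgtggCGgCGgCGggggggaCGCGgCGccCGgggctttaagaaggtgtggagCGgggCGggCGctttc
VLDLR: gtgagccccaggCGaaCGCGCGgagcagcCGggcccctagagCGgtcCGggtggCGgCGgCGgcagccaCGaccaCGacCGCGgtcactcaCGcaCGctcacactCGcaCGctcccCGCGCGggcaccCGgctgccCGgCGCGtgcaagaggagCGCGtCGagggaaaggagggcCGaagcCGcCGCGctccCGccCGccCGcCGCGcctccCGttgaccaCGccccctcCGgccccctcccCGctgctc
LRP8: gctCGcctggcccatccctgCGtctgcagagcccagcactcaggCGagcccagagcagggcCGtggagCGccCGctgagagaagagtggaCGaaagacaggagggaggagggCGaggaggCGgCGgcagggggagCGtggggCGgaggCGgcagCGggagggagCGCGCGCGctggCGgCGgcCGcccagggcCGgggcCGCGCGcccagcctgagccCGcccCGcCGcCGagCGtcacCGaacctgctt

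The RELN window held 43 CpG dinucleotides at 83.2% GC, and 99% of 27305 RefSeq promoter windows of the same length held fewer. The VLDLR window held 41 CpG at 78.8% GC, with 98.3% of windows holding fewer. The LRP8 window held 31 CpG at 77.2% GC, with 89.4% holding fewer, beside a median of 11 CpG over all windows. All 5 members matched the RefSeq table: the DAB2 window held 18 CpG, and 6 alternative DAB1 windows held 12 to 41. The DAB2 window, too, lies within the gene's span in the table of read counts. The GC box GGGCGG, searched on both strands, occurred 6 times in the RELN window, 2 times in that of VLDLR, 3 times in that of LRP8 and 2 times in that of DAB2, and 42.3% of all windows held at least 1. A match or its lack says only whether these letters stand in these 250 bases.

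Total counts ran from 12318529 to 14672948 per library, and 3 counts in 1 library equalled 0.204 to 0.244 CPM, the count scaled to library size. FPKM values are reads scaled to gene length and library total, and means are given with their SD over the 3 libraries of a group. KLK2, KLK3, HOXB13, FOLH1, TMPRSS2, KRT8 and KRT18, markers of prostate luminal cells, were each at 1 FPKM or more on average in all 4 groups. The third C4-2 lv-control library stood apart from the other two of its group, with a chi-square of the counts per degree of freedom of 7.15 and 13, beside 2.12 to 4.77 for all other pairs within groups.

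RELN (ENSG00000189056, chr7:103471784-103989658, minus strand of GRCh38) was lower wherever ARv7 was changed, in both directions of that change. In C4-2 lv-ARv7 the 3 libraries stood at 3.70, 3.73 and 3.38 FPKM, against 12.8, 12.05 and 11.1 FPKM in C4-2 lv-control. In 22Rv-1 lv-shARv7 they stood at 4.87, 5.30 and 5.49 FPKM, against 38.3, 40.1 and 40.2 FPKM in 22Rv-1 lv-shcontrol. Every library with altered ARv7 lay below every control library of either line, and no pair of groups overlapped. In such bulk samples, fewer cells that make a transcript and less transcript per cell cannot be told apart.

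The scaled counts of RELN in C4-2 lv-ARv7 were 3.68-fold lower than in C4-2 lv-control, a log2 difference of -1.88. In 22Rv-1 lv-shARv7 they were 7.82-fold lower than in 22Rv-1 lv-shcontrol, a log2 difference of -2.97. These values come from 1890 counts summed over C4-2 lv-ARv7 and 6707 over C4-2 lv-control, and from 2665 over 22Rv-1 lv-shARv7 and 21273 over 22Rv-1 lv-shcontrol. RELN had the 82nd largest fall of 10470 genes that averaged 5 CPM or more in C4-2, and the 11th largest of 11115 in 22Rv-1. Of 12080 genes tested in both lines, 863 (7.14%) were called lower in both and 844 higher in both. Among those lower in both and ranked by the smaller of their falls, RELN came 2nd after the metallothionein gene MT2A, and 9 genes were at least 2-fold lower in both.

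Among 19973 genes ranked by mean FPKM, RELN stood at place 8242 in C4-2 lv-ARv7 and 3746 in C4-2 lv-control, and at place 7284 in 22Rv-1 lv-shARv7 and 890 in 22Rv-1 lv-shcontrol. On counts scaled over all 12 libraries it averaged 45.6 ± 2.69 CPM in C4-2 lv-ARv7 and 167 ± 7.42 in C4-2 lv-control, and 63.2 ± 3.57 in 22Rv-1 lv-shARv7 and 496 ± 12.6 in 22Rv-1 lv-shcontrol. Its order from high to low was therefore 22Rv-1 lv-shcontrol, C4-2 lv-control, 22Rv-1 lv-shARv7 and C4-2 lv-ARv7, and no neighbours in it overlapped. The control cells of 22Rv-1 had 2.97-fold more RELN than those of C4-2, while the cells with altered ARv7 differed 1.38-fold between the lines.

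**Figure D1:**
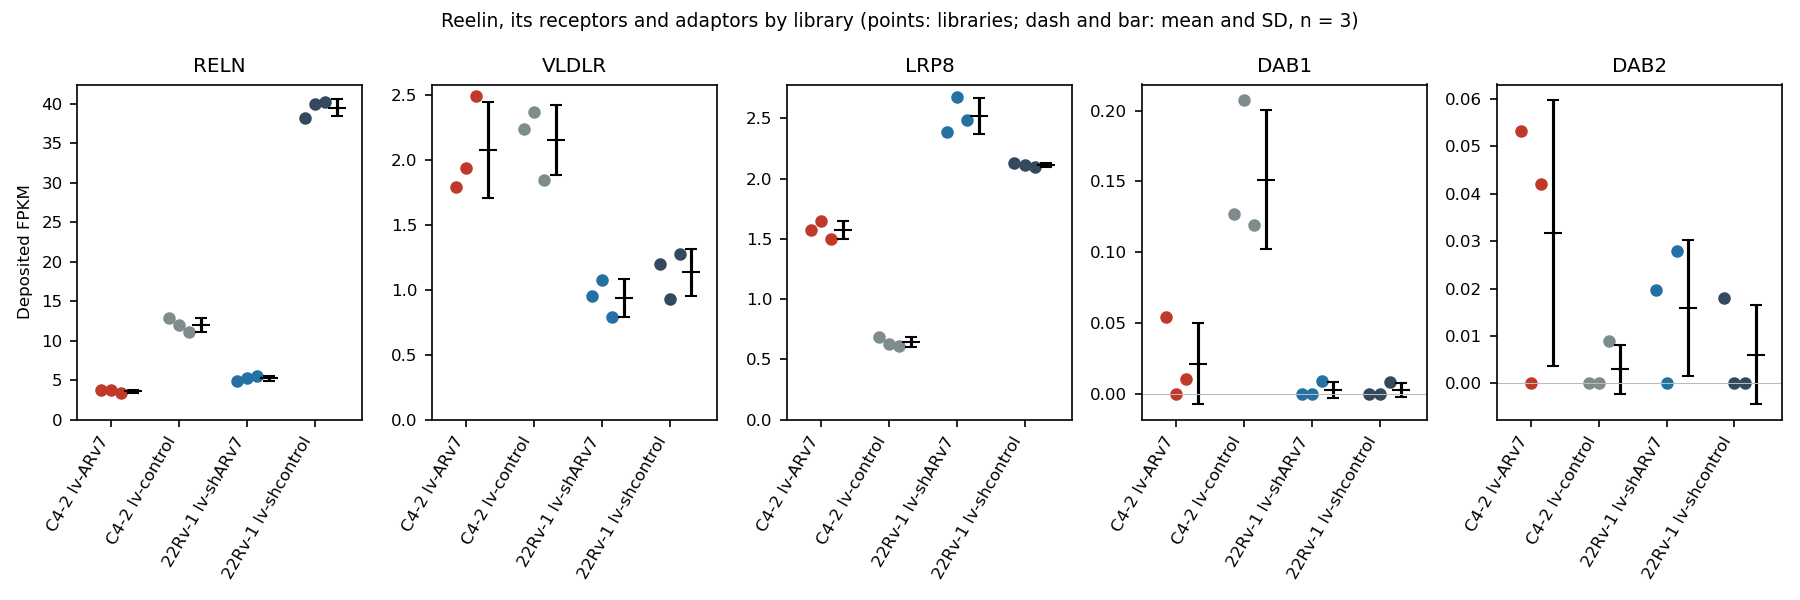
Deposited FPKM (y axis, own scale for each gene) of RELN, VLDLR, LRP8, DAB1 and DAB2 in the 4 groups (x axis). Points are single libraries, and the dash with its bar is the mean and SD of 3. RELN libraries with altered ARv7 lie between 3.38 and 5.49 FPKM, below all control libraries, while LRP8 orders the groups otherwise and DAB1 and DAB2 stay at or below 0.208 FPKM.

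VLDLR (ENSG00000147852, chr9:2621787-2660056, plus strand), the receptor of the pair that reelin shares with very-low-density lipoprotein, was low and passed the threshold in neither line. Its libraries stood at 1.80, 1.94 and 2.50 FPKM in C4-2 lv-ARv7, against 2.24, 2.37 and 1.85 FPKM in C4-2 lv-control. In 22Rv-1 lv-shARv7 they stood at 0.950, 1.08 and 0.788 FPKM, against 1.20, 0.932 and 1.27 FPKM in 22Rv-1 lv-shcontrol. The groups overlapped within each line, and all C4-2 libraries lay above all 22Rv-1 libraries.

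The log2 difference of VLDLR in C4-2 was -0.20 (SE 0.13, 95% interval -0.47 to 0.06), with an adjusted p of 0.178 in edgeR's quasi-likelihood test. In 22Rv-1 it was -0.33 (SE 0.15, 95% interval -0.63 to -0.03), with an adjusted p of 0.0646. The interval of the 22Rv-1 value ends below 0 because it is not adjusted for the number of genes tested. The responses in the comparisons were not shown to differ: 22Rv-1 minus C4-2 was -0.14 (95% interval -0.55 to 0.27, adjusted p 0.592). In that difference, line cannot be told apart from depletion against expression of ARv7. Without C4-2 lv-control replicate 3, which stood apart, the C4-2 value was -0.29 with an adjusted p of 0.0365, and without C4-2 lv-ARv7 replicate 3 it was -0.35 with an adjusted p of 0.0333. Without 22Rv-1 lv-shARv7 replicate 2 the 22Rv-1 value was -0.44 (adjusted p 0.0323), and without 22Rv-1 lv-shcontrol replicate 2 it was -0.45 (adjusted p 0.0163). The antisense gene VLDLR-AS1 shares 738 exonic bases with VLDLR, and with the strand not given in the sources used here its reads could not be separated.

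LRP8 (ENSG00000157193, chr1:53242364-53328469, minus strand), the reelin receptor also known for taking up selenoprotein P, was higher with ARv7 expression in C4-2 and slightly higher with ARv7 depletion in 22Rv-1. Its libraries stood at 1.57, 1.65 and 1.49 FPKM in C4-2 lv-ARv7, against 0.687, 0.624 and 0.609 FPKM in C4-2 lv-control. In 22Rv-1 lv-shARv7 they stood at 2.39, 2.68 and 2.49 FPKM, against 2.13, 2.11 and 2.10 FPKM in 22Rv-1 lv-shcontrol. The groups did not overlap within either line, and every 22Rv-1 library lay above every C4-2 library.

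In C4-2 the log2 difference of LRP8 was 1.15 (SE 0.10, 95% interval 0.93 to 1.37), a 2.22-fold rise with an adjusted p of 1.35e-08. It was called again when any 1 of the 6 libraries was left out, with log2 differences of 1.12 to 1.18. In 22Rv-1 it was 0.21 (SE 0.08, 95% interval 0.05 to 0.36), a 1.15-fold rise with an adjusted p of 0.0222. That call was lost without 22Rv-1 lv-shARv7 replicate 2 (adjusted p 0.140), without 22Rv-1 lv-shcontrol replicate 2 (adjusted p 0.0564) and with limma on log2(FPKM + 1) (adjusted p 0.0745). The rise was smaller in 22Rv-1 than in C4-2: the difference of the responses was -0.96 on the log2 scale (SE 0.13, edgeR adjusted p 4.28e-08), where 50.2% of 14235 genes were called. Line and kind of ARv7 change cannot be told apart in that difference. RELN was lower in both lines, and LRP8 was lower in neither. The antisense genes AL355483.4, AL606760.1 and AL355483.2 share 467, 346 and 249 exonic bases with LRP8, and their reads could not be separated.

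Apart from RELN, VLDLR and LRP8 were the members with counts in every library, and 1 of them was called in C4-2, where 59.1% of 12783 genes were called. In 22Rv-1, too, 1 of them was called, where 48% of 13459 genes were called. Both calls were of LRP8 and upward, where 29.6% of genes were called higher in C4-2 and 23.9% in 22Rv-1, with 29.5% and 24.1% called lower. The libraries of 1 of these 2 receptors did not overlap between the groups of C4-2, and of 1 between those of 22Rv-1, beside 63.3% and 53.7% of the genes tested. These shares lie near the background in both lines.

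The control cells of the lines differed in both receptors, with line and vector not told apart. VLDLR was lower in 22Rv-1 lv-shcontrol than in C4-2 lv-control by a log2 difference of -1.07 (SE 0.14, edgeR adjusted p 1.01e-08). LRP8 was higher in 22Rv-1 lv-shcontrol by 1.57 (SE 0.09, adjusted p 5.59e-18). In that comparison 83.4% of 14235 genes were called. On counts scaled over all 12 libraries, VLDLR stood at 19.3 CPM in C4-2 lv-ARv7 and 22.0 in C4-2 lv-control, which overlapped, and at 8.34 in 22Rv-1 lv-shARv7 and 10.5 in 22Rv-1 lv-shcontrol, which also overlapped. LRP8 stood at 30.6 CPM in C4-2 lv-ARv7 and 13.7 in C4-2 lv-control, and at 46.9 in 22Rv-1 lv-shARv7 and 40.8 in 22Rv-1 lv-shcontrol, with no overlap between any neighbours in the order.

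**Figure D2:**
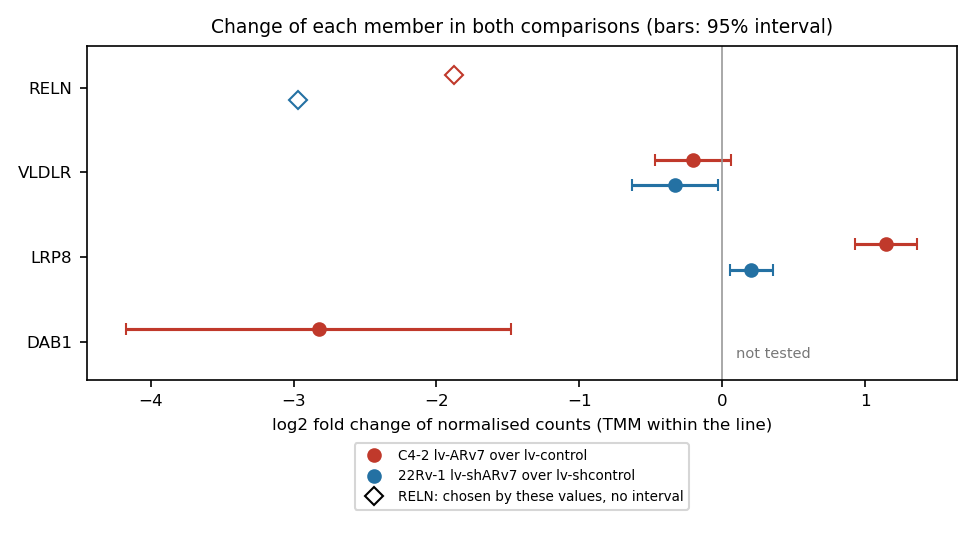
Log2 fold change of scaled counts (x axis) of RELN, VLDLR, LRP8 and DAB1 (rows) for C4-2 lv-ARv7 over lv-control (red) and 22Rv-1 lv-shARv7 over lv-shcontrol (blue). Bars are 95% intervals, and RELN has none because its values chose it. The DAB1 bar in C4-2 is no test of a fall, because DAB1 passed the filter there only through the control libraries. The 2 VLDLR intervals overlap, while that of LRP8 in C4-2 (0.93 to 1.37) lies apart from that in 22Rv-1 (0.05 to 0.36).

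The balance of ligand to receptors was taken per length, as RELN FPKM over the sum of VLDLR and LRP8 FPKM, and is a description because RELN enters it. It was 0.995 ± 0.132 in C4-2 lv-ARv7 and 4.31 ± 0.259 in C4-2 lv-control (SD, n = 3 each). It was 1.52 ± 0.140 in 22Rv-1 lv-shARv7 and 12.2 ± 0.863 in 22Rv-1 lv-shcontrol. RELN transcript thus exceeded that of its receptors in both controls and in 22Rv-1 lv-shARv7 on this scale, and was close to it in C4-2 lv-ARv7. The ratio of LRP8 to VLDLR FPKM was 0.774 ± 0.153 in C4-2 lv-ARv7 and 0.299 ± 0.0337 in C4-2 lv-control, and 2.72 ± 0.382 in 22Rv-1 lv-shARv7 and 1.90 ± 0.328 in 22Rv-1 lv-shcontrol. VLDLR was the more abundant receptor in C4-2 and LRP8 in 22Rv-1 on this scale.

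The FPKM of LRP8 used a gene length of 19668 bases, 1.92 times the 10263 exonic bases of GENCODE release 29. With the GENCODE lengths, a setting added after the values were seen, the ratio of LRP8 to VLDLR was 1.44 in C4-2 lv-ARv7 and 0.566 in C4-2 lv-control, so the order of the receptors in C4-2 lv-ARv7 turns with the length used. It was 5.12 in 22Rv-1 lv-shARv7 and 3.55 in 22Rv-1 lv-shcontrol. RELN over both receptors was then 0.715 in C4-2 lv-ARv7 and 3.58 in C4-2 lv-control, and 0.915 in 22Rv-1 lv-shARv7 and 7.70 in 22Rv-1 lv-shcontrol. RELN thus exceeded its receptors in both controls with either length. Whether it did so in 22Rv-1 lv-shARv7 turns with the length used.

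DAB1 (ENSG00000173406, chr1:56994778-58546734, minus strand), the adaptor that carries the reelin signal into the cell, was near the floor in 3 of the 4 groups. C4-2 lv-ARv7 libraries held 6, 0 and 1 counts, against 14, 23 and 13 in C4-2 lv-control. 22Rv-1 lv-shARv7 libraries held 0, 0 and 1 counts, and 22Rv-1 lv-shcontrol libraries also held 0, 0 and 1. In C4-2 the ratio of the summed counts per total was 0.150 (exact 95% counting interval 0.0572 to 0.332), or 6.68-fold lower in C4-2 lv-ARv7.

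DAB1 passed the filter on low counts in C4-2 only through the control libraries, so its call there (log2 difference -2.82, SE 0.64, adjusted p 0.000876) had to come out as a fall and is given as a value only. Leaving out 1 library moved that log2 difference between -4.74 and -2.25. In 22Rv-1 it was not tested. The table's DAB1 shares 257 exonic bases with OMA1, a mitochondrial protease gene on the same strand, which averaged 8.80 FPKM in C4-2 lv-ARv7 and 6.54 in C4-2 lv-control. The control libraries of C4-2, where DAB1 was highest, reached 0.208 FPKM.

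DAB2 (ENSG00000153071, chr5:39371675-39462300, minus strand), the endocytic adaptor, was at or near 0 counts everywhere and passed the filter in neither line. The libraries held 6, 0 and 4 counts in C4-2 lv-ARv7, against 0, 0 and 1 in C4-2 lv-control. They held 2, 0 and 3 counts in 22Rv-1 lv-shARv7, against 2, 0 and 0 in 22Rv-1 lv-shcontrol. The C4-2 groups overlapped, and the ratio of their summed counts per total, 10.7, had a counting interval of 1.52 to 464 that does not cover the spread between replicates. The table's DAB2 shares 119 exonic bases with C9, a complement gene. Both adaptors were at or below 0.208 FPKM in every library, while both receptors were at 0.609 FPKM or more.

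The genes around these members were described by 8 lists holding 112 genes, of which 93 were tested in C4-2 and 104 in 22Rv-1. In C4-2, 17 were higher with ARv7 and 48 lower, which makes 69.9% called, beside 59.1% of all genes, with a median log2 difference of -0.17 beside 0.01 over all genes. The split rests on the scaling: with total counts and no scaling factor the median of all genes moved to 0.15, and 26 list genes were higher and 31 lower, with a median of -0.03. With limma 26 were lower, and the 17 higher became 11 without C4-2 lv-ARv7 replicate 1 and 10 without C4-2 lv-ARv7 replicate 2. In 22Rv-1, 25 were higher and 29 lower, which makes 51.9% called, beside 48% of all genes, with a median of -0.01. With total counts 29 were higher and 21 lower there, with a median of 0.04, and with limma 16 were lower. Of the list genes, 8 were called lower in both lines, 4 higher in both, 7 higher in C4-2 and lower in 22Rv-1, and 11 the other way. Of all 12080 genes tested in both lines, 863 (7.14%) were lower in both and 844 higher in both. The share of all genes called in opposite directions was not counted, so the 7 and 11 are given as counts only. The list counts include genes that passed the filter only through their higher group. Among them were UHRF1 and TET1 in C4-2 and LPL, ADAMTS2 and ADAMTS4 in 22Rv-1. LRP4, called higher in 22Rv-1, would likewise not have passed on its lv-shcontrol libraries alone.

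Among the 7 proteases that cut reelin none passed the filter in C4-2, and 4 did in 22Rv-1, with 1 higher and 2 lower. The higher one was ADAMTS2, with 45 counts summed over lv-shARv7 and 2 over lv-shcontrol. ADAMTS4, 1 of the 2 lower, held 27 and 130. Both passed only through the group where they were higher, so their direction was set by the filter. ADAMTS3, a main reelin protease of the mouse brain, averaged 0.929 ± 0.118 FPKM in 22Rv-1 lv-shARv7 and 1.24 ± 0.105 in 22Rv-1 lv-shcontrol, a log2 difference of -0.47 (edgeR adjusted p 0.0157). That call was lost with limma, with 1 fit of all libraries, and without 22Rv-1 lv-shARv7 replicate 1 or 3 or 22Rv-1 lv-shcontrol replicate 3 (adjusted p up to 0.0694 with a library left out). Of the other ligands and chaperones of the receptors, 2 of 6 tested were higher and 2 lower in C4-2, beside 29.6% and 29.5% of all genes. In 22Rv-1, 4 of 8 were higher and 2 lower, beside 23.9% and 24.1% of all genes. The 4 higher include LPL, given below as a value and not as a call. SELENOP, the selenium carrier that LRP8 takes up, averaged 3.77 ± 0.113 FPKM in C4-2 lv-ARv7 and 2.71 ± 0.556 in C4-2 lv-control (log2 difference 0.33, adjusted p 0.0305), a call lost without any 1 of the C4-2 lv-ARv7 libraries or without C4-2 lv-control replicate 3 (adjusted p up to 0.159). LPL, lipoprotein lipase and a ligand of VLDLR, averaged 8.85 ± 0.253 FPKM in 22Rv-1 lv-shARv7 and 0.150 ± 0.0588 in 22Rv-1 lv-shcontrol, from 1459 counts summed over lv-shARv7 and 26 over lv-shcontrol. It passed the filter only through the lv-shARv7 libraries, so that its difference is given as a value and not as a call. In C4-2 LPL was at or below 0.0341 FPKM on average in both groups and was not tested. LRPAP1, the chaperone of the receptor family, was lower in C4-2 (-0.22, adjusted p 0.0227), a call lost with total counts, with limma, and without C4-2 lv-ARv7 replicate 1 or 2 or C4-2 lv-control replicate 3 (adjusted p up to 0.111 with a library left out), and higher in 22Rv-1 (0.44, adjusted p 6.88e-09).

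Of 9 proposed co-receptors of reelin, 7 were lower and 1 higher in C4-2, where 29.5% of all genes were called lower and 29.6% higher, with a median log2 difference of -0.34 (6 lower and 1 higher with total counts). In 22Rv-1, 5 of 9 were higher and 1 lower, where 23.9% of all genes were called higher and 24.1% lower, with a median of 0.18. APP, the amyloid precursor, averaged 49.2 ± 0.981 FPKM in C4-2 lv-ARv7 and 137 ± 2.36 in C4-2 lv-control (log2 difference -1.63, adjusted p 3.63e-15). ITGA3, the integrin chain reported to bind reelin, averaged 2.15 ± 0.275 FPKM in C4-2 lv-ARv7 and 5.35 ± 0.226 in C4-2 lv-control (-1.46, adjusted p 1.31e-10). EFNB2, an ephrin that binds reelin, fell in C4-2 (-1.25, adjusted p 1.35e-05) and rose in 22Rv-1 (1.00, adjusted p 1.16e-06). The other members of the LDL receptor family showed 3 of 9 lower and none higher in C4-2, with a median of -0.04 that became 0.11 with total counts, where 1 was higher and 2 lower. In 22Rv-1, 4 of 11 were higher and 2 lower, LRP1 among the higher (0.66, adjusted p 7.76e-11) and LRP12 among the lower (-0.96, adjusted p 7.35e-19). The 4 higher include LRP4, with 62 counts summed over lv-shARv7 and 30 over lv-shcontrol. Its lv-shcontrol libraries alone would not have passed the filter, so the filter favoured that direction.

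The signalling genes below DAB1 had 18 of 26 lower and 2 higher in C4-2, beside 29.5% and 29.6% of all genes, with a median of -0.28, and 12 lower and 5 higher with total counts. NCK2, an adaptor that binds phosphorylated DAB1, averaged 5.72 ± 0.528 FPKM in C4-2 lv-ARv7 and 16.5 ± 0.0375 in C4-2 lv-control (-1.68, adjusted p 5.88e-12). CDK5R1, the activator of the kinase CDK5, rose there (0.82, adjusted p 5.59e-06). In 22Rv-1, 14 of 28 were called, a share near the 48% of all genes, with 10 lower and 4 higher. Among them were SRC, a kinase of DAB1, at -0.56 (adjusted p 1.34e-12), and MAPT, which encodes tau, at 1.03 (adjusted p 8.90e-18). With total counts 5 were lower and 6 higher there. PIK3R1, a regulatory subunit of PI3 kinase, was higher in C4-2 (0.54, adjusted p 3.79e-07) and lower in 22Rv-1 (-0.55, adjusted p 2.39e-08).

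Genes for the turnover of receptors and DAB1 had 9 of 15 lower and 2 higher in C4-2, beside 29.5% and 29.6% of all genes. With total counts 7 were lower and 3 higher. In 22Rv-1, 2 were lower and 2 higher, where the 4 called of 15 lie below the 48% of all genes. SNX17, which returns the receptors to the cell surface, fell in C4-2 (-0.36, adjusted p 9.50e-05), and so did UBE2F and RNF7, of the ligase machinery that degrades active DAB1, at -0.75 (adjusted p 4.51e-05) and -0.49 (adjusted p 7.77e-05). Other adaptors of the DAB type and the endocytic partners of DAB2 had 7 of 16 lower and 4 higher in C4-2, beside the same shares of all genes. With total counts 2 were lower and 6 higher, and the median of the list moved between -0.11 and 0.04. In 22Rv-1, 2 of 16 were lower and 4 higher, a share called that lies below the 48% of all genes, with a median of -0.04 that became 0.01 with total counts. NUMBL, another adaptor with a phosphotyrosine-binding domain, rose in C4-2 (1.02, adjusted p 6.47e-07) and in 22Rv-1 (0.29, adjusted p 0.00319).

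The list of DNA methylation genes and known RELN regulators had 6 of 12 higher and 2 lower in C4-2, beside 29.6% and 29.5% of all genes. The median was 0.19, and with total counts 8 were higher and 1 lower. The 6 higher include UHRF1 and TET1 (65 counts summed over lv-ARv7 and 18 over lv-control), which passed the filter only through the lv-ARv7 libraries. Their direction was thus set by the filter. In 22Rv-1, 8 of 13 were lower and 1 higher, beside 24.1% and 23.9% of all genes. The median there was -0.22, with 7 lower and 1 higher under total counts. UHRF1, which guides the maintenance methyltransferase, averaged 6.55 ± 0.528 FPKM in C4-2 lv-ARv7 and 0.173 ± 0.0829 in C4-2 lv-control, from 1372 counts summed over lv-ARv7 and 39 over lv-control. It passed the filter in C4-2 only through the lv-ARv7 libraries, so that its difference there is given as a value and not as a call. It averaged 13.6 ± 0.270 FPKM in 22Rv-1 lv-shARv7 and 23.3 ± 0.0590 in 22Rv-1 lv-shcontrol (-0.82, adjusted p 2.69e-20). DNMT3B, a methyltransferase, rose in C4-2 (1.63, adjusted p 3.11e-07), and DNMT1, the maintenance methyltransferase, fell in 22Rv-1 (-0.69, adjusted p 5.86e-21). Methylation of the RELN promoter was not measured.

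**Figure D3:**
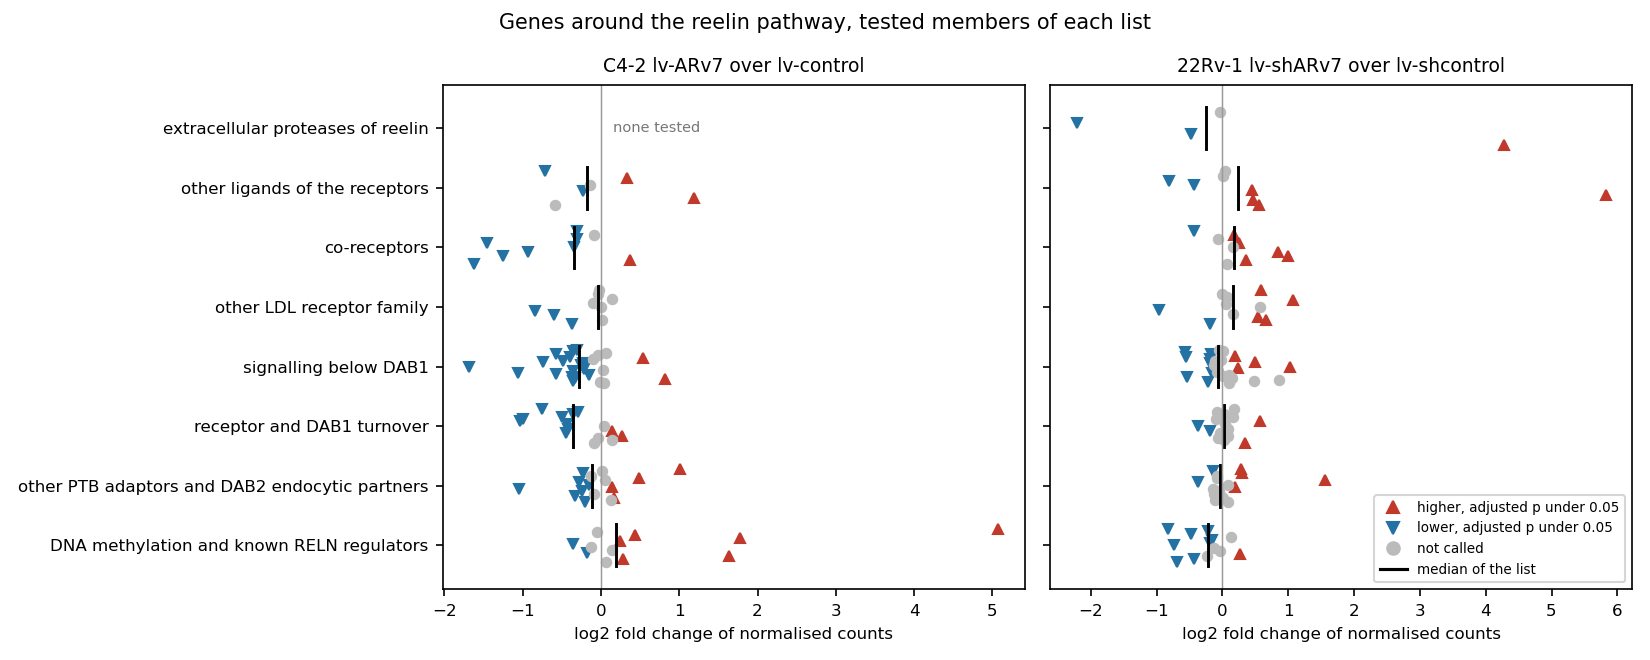
Log2 fold change of scaled counts (x axis) of each tested gene in 8 lists around the reelin pathway (rows), C4-2 lv-ARv7 over lv-control on the left and 22Rv-1 lv-shARv7 over lv-shcontrol on the right. Triangles passed the threshold upward or downward, grey points did not, and black bars are list medians. The triangles of UHRF1 and TET1 in C4-2 and of LPL, ADAMTS2, ADAMTS4 and LRP4 in 22Rv-1 are values and not calls. Their lower group alone would not have passed the filter, and they enter the medians. In C4-2 the signalling list has 18 downward and 2 upward triangles; in 22Rv-1 the co-receptors have 5 upward and 1 downward.

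Genes whose level followed RELN across the libraries were ranked by the root mean square difference of log2 CPM from RELN, after each gene's own mean was subtracted, over the 11158 genes that averaged 5 CPM or more. The choice is by likeness to RELN, so the values are a description. With the mean taken over all 12 libraries the closest were COLGALT2 (0.660), FAM222A (0.686), MAP1B (0.699), GAS2 (0.703) and CCDC85A (0.735), beside a median of 1.42 over all genes and 1.34 for a flat profile. With the mean taken within each line, which removes the difference between lines, the closest were MT2A (0.398), FAM237B (0.545), GAS2 (0.551), PEX5L (0.590) and MAP1B (0.610), beside a median of 1.25 and 1.24 for a flat profile. MT2A averaged 15.4 ± 2.05 FPKM in C4-2 lv-ARv7 and 58.6 ± 7.09 in C4-2 lv-control, and 5.92 ± 0.704 in 22Rv-1 lv-shARv7 and 22.6 ± 2.65 in 22Rv-1 lv-shcontrol. Unlike RELN it was higher in the C4-2 than in the 22Rv-1 control. COLGALT2 kept the group order of RELN, at 1.10 ± 0.167 FPKM in C4-2 lv-ARv7 and 1.97 ± 0.244 in C4-2 lv-control, and at 1.51 ± 0.0394 in 22Rv-1 lv-shARv7 and 4.05 ± 0.174 in 22Rv-1 lv-shcontrol. MAP1B, in both rankings, had a log2 difference of -2.31 in 22Rv-1 and of -0.29 in C4-2.

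**Figure D4:**
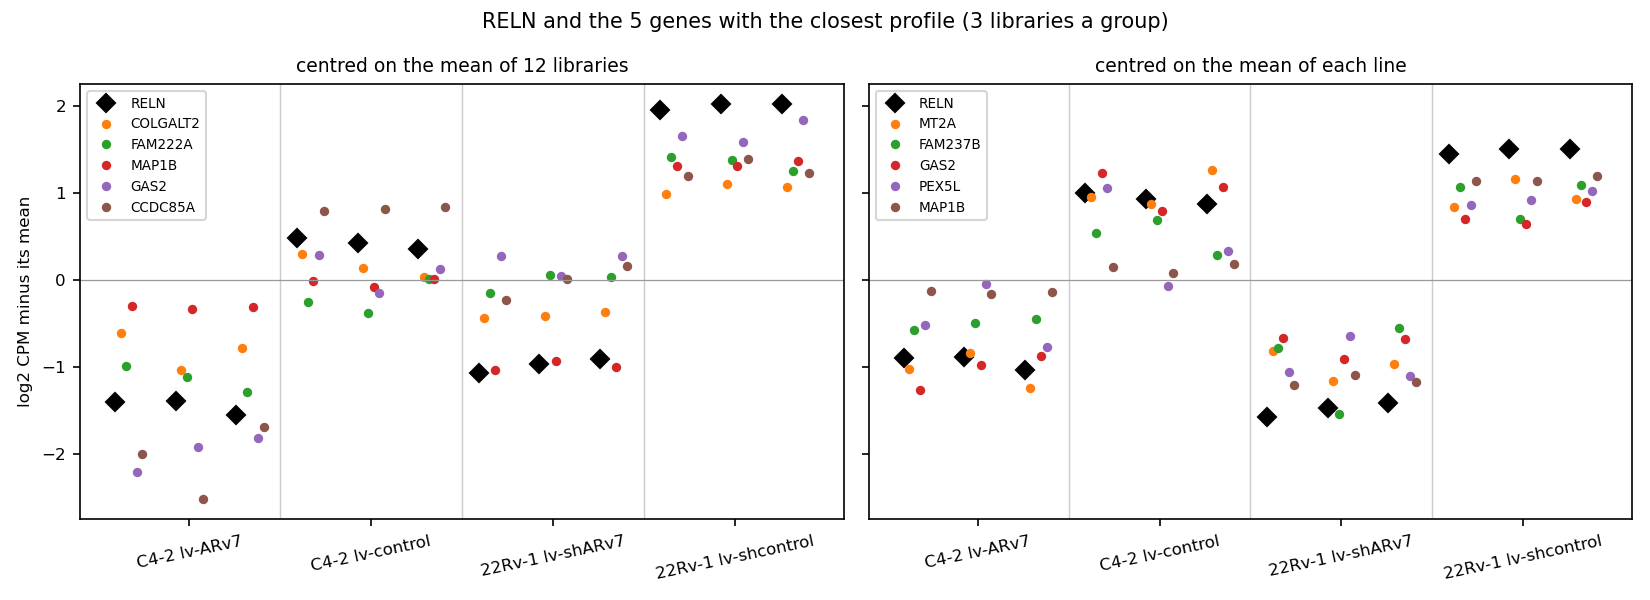
Log2 CPM minus the gene's mean (y axis) in each library, by group (x axis), for RELN (black diamonds) and the 5 genes closest to it, with the mean taken over 12 libraries (left) or within each line (right). Every gene lies higher in the control group of 22Rv-1 than in lv-shARv7, and within lines MT2A stays closest to RELN (root mean square difference 0.398).

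The genes on either side of RELN on chromosome 7 were PSMC2 and SLC26A5 on one side and ORC5 and LHFPL3 on the other. PSMC2, a proteasome subunit, fell in C4-2 (-0.52, adjusted p 3.18e-07) and in 22Rv-1 (-0.26, adjusted p 5.04e-05). ORC5, a subunit of the origin recognition complex, also fell in C4-2 (-0.64, adjusted p 6.01e-07) and in 22Rv-1 (-0.88, adjusted p 3.84e-18). SLC26A5, which encodes the motor protein prestin, stood at 0.200 FPKM in 22Rv-1 lv-shARv7 and 1.01 FPKM in 22Rv-1 lv-shcontrol and passed the filter there only through the lv-shcontrol libraries, so that it is given as a value. It was not tested in C4-2. LHFPL3 was at or below 0.185 FPKM in all groups and was tested in neither line. Beside LRP8, CZIB rose in C4-2 (0.36, adjusted p 0.00359) and did not pass in 22Rv-1 (-0.01, adjusted p 0.972). MAGOH, a subunit of the exon junction complex, did not pass in C4-2 (0.10, adjusted p 0.448) and fell in 22Rv-1 (-0.26, adjusted p 0.0216). DMRTB1 and GLIS1, on the other side of LRP8, were at or below 0.0896 FPKM and untested.

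Of the genes nearest VLDLR, SMARCA2 lay 428163 bases away and DMRT2, on the same side, 1564235. SMARCA2, a chromatin remodelling ATPase, fell in C4-2 (-0.20, edgeR adjusted p 0.0173) and in 22Rv-1 (-0.59, adjusted p 2.65e-15). PUM3 passed in neither line, at 0.27 (adjusted p 0.0653) in C4-2 and -0.06 (adjusted p 0.505) in 22Rv-1, and DMRT2 and KCNV2 were untested. Beside DAB1, MYSM1 passed in neither line (0.21, adjusted p 0.0654 in C4-2 and -0.07, adjusted p 0.340 in 22Rv-1), and C8A and C8B were listed at 0 in every group.

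Of the genes nearest DAB2 on its sides, FYB1 lay 97147 bases away, RICTOR 297276, TTC33 1050033 and PTGER4 1217615. TTC33 fell in C4-2 (-0.60, adjusted p 3.84e-05) and rose in 22Rv-1 (0.28, adjusted p 0.00222). PTGER4, a prostaglandin E2 receptor, rose in C4-2 (1.23, adjusted p 3.04e-09) and did not pass in 22Rv-1 (0.33, adjusted p 0.0588). RICTOR, a subunit of mTOR complex 2, fell in C4-2 (-0.34, adjusted p 0.00444) and did not pass in 22Rv-1 (-0.03, adjusted p 0.806), and FYB1 was untested.

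Markers of other cell types were summed in each library. Of the 5 lymphatic endothelium markers (PROX1, LYVE1, PDPN, FLT4, CCL21), FLT4 reached 1 FPKM in the 22Rv-1 groups, and each of the others averaged at most 0.0543 FPKM. Their sum was 0.275 to 0.517 FPKM in C4-2 lv-ARv7 and 0.109 to 0.254 in C4-2 lv-control, and 1.55 to 1.91 in 22Rv-1 lv-shARv7 and 1.49 to 2.06 in 22Rv-1 lv-shcontrol. It was thus higher in C4-2 lv-ARv7, where RELN was lower, and overlapped between the 22Rv-1 groups. The 6 markers of reelin neurons (GAD1, GAD2, CALB2, LHX5, TBR1, EOMES) summed to at most 1.51 FPKM in any library, the 5 of blood endothelium to at most 0.889 and the 5 of leukocytes to at most 1.90. In C4-2 the neuron sum was 0.106 to 0.316 FPKM in lv-ARv7 and 0.343 to 0.487 in lv-control. The leukocyte sum was 0.0489 to 0.0848 and 0.816 to 1.05, so both were lower in C4-2 lv-ARv7, as RELN was. In 22Rv-1 the neuron sums overlapped, and the leukocyte sum was higher in lv-shARv7, at 0.741 to 1.90 against 0.395 to 0.528. The blood endothelium sums overlapped in C4-2 and were higher in lv-shARv7 in 22Rv-1. Fibroblast markers (COL1A1, COL1A2, DCN, LUM, PDGFRB) summed to 3.13 to 3.90 FPKM in 22Rv-1 lv-shARv7 and 9.89 to 11.3 in 22Rv-1 lv-shcontrol, so that the sum was lower in 22Rv-1 lv-shARv7, as RELN was. LUM averaged 0.913 FPKM in 22Rv-1 lv-shARv7 and 8.45 in 22Rv-1 lv-shcontrol, and made most of that difference. COL1A1 went the other way, at 2.47 FPKM in 22Rv-1 lv-shARv7 and 1.91 in 22Rv-1 lv-shcontrol, and COL1A2 averaged at most 0.0106 FPKM in any group. In C4-2 the fibroblast sum was 1.81 to 2.10 FPKM in C4-2 lv-ARv7 and 0.836 to 0.984 in C4-2 lv-control, opposite to RELN. The part of these markers in the RELN values was not tested.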

How the data were processed

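RNA of infected C4-2 and 22Rv-1 cells was sequenced in 12 libraries, 3 replicates in each of 4 groups taken from the sample titles. Per the labels' protocols, poly(A) and unqualified reads were trimmed with Cutadapt 2.7. The aligner, counting tool and library strand were not given in the sources used here. The deposited table holds whole-number read counts per gene, with no normalization. It also holds FPKM made by the authors: all 184320 FPKM values above 0 equal the count divided by the table's gene length and the library total, on the usual FPKM scale, within a relative tolerance of 0.0001. The submitters' processing notes name hg18, while the coordinates in the table are those of GRCh38. Of 19974 lines, 1 had no gene identifier and was left out.

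Each line was fitted on its own with edgeR 4.0.16 (R 4.3.3): filterByExpr with the group, TMM scaling and quasi-likelihood tests; a call is a Benjamini-Hochberg adjusted p under 0.05 over all genes tested. Differences of the responses and levels between lines came from 1 fit of all 12 libraries. The fitted biological coefficients of variation were 0.0655 (C4-2) and 0.0516 (22Rv-1). Alternatives used limma 3.58.1, DESeq2 1.42.0, other scalings and filters, a replicate block, and each library left out in turn. Intervals of count ratios are exact at 95% and cover counting error only, since PCR copies were not told apart. The fits were tested on simulated data. Overlaps between genes came from GENCODE release 29 and promoters from RefSeq GRCh38.p14.

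The members and the lists were chosen with earlier results of these data known. The text names the 5 members, up to 4 genes of each list and comparison with the smallest adjusted p among those called at a mean of at least 5 CPM, the 5 genes closest to RELN under each centring, and the 2 nearest genes on each side of a member. Genes that overlap a member, and marker genes with the levels given, were named after their values were seen. The check of the targeted gene, and some list members, neighbouring genes and motifs, are not reported here.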

Additional observations from a re-analysis of the deposited data

Results flagged for a closer look

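The response of LRP8 differed between the comparisons in a test of the difference itself. ARv7 was expressed in C4-2 and depleted in 22Rv-1, so line and kind of ARv7 change cannot be told apart in this test. LRP8 rose by 1.15 on the log2 scale in C4-2 lv-ARv7 over C4-2 lv-control and by 0.21 in 22Rv-1 lv-shARv7 over 22Rv-1 lv-shcontrol. The 22Rv-1 response minus the C4-2 response was -0.96 (SE 0.13, edgeR adjusted p 4.28e-08). Over the alternatives with all libraries this difference ran from -1.04 to -0.47, the smaller size on log2(FPKM + 1), and with each library left out in turn from -1.01 to -0.92. The libraries of each line did not overlap between its groups.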

How the results depend on the processing

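Of 330 alternative values for 29 results, 304 kept the direction and the side of the threshold, or stayed within the spread or 1.5 times the count. The 29 results include both RELN differences and the DAB1 difference in C4-2. Their directions were set by the choice of RELN and by the filter, so their agreement is no support. The log2 difference of RELN in C4-2 was -1.73 with total counts and no scaling factor and -1.50 with limma on log2(FPKM + 1), and that in 22Rv-1 was -2.70 with limma. VLDLR, not called with all libraries, ranged in C4-2 from -0.35 to -0.11 with each library left out (adjusted p 0.0333 to 0.545) and in 22Rv-1 from -0.45 to -0.22 (0.0163 to 0.303), and with total counts it was -0.06 in C4-2. LRP8 in 22Rv-1 was 0.18 with limma (adjusted p 0.0745) and 0.16 to 0.24 with each library left out (0.0197 to 0.140); in C4-2 it was 0.65 with limma, where the pseudocount of 1 shrinks the change of low genes. The difference of the VLDLR responses ranged from -0.26 to 0.0034 with each library left out and turned positive without C4-2 lv-ARv7 replicate 3; the cause of these shifts was not tested.

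The count of genes called lower in C4-2 was 2237 with limma, against 3776. Called pathway genes in C4-2 were 26 higher and 31 lower with total counts, 26 lower with limma, and 10 to 20 higher and 40 to 47 lower with each library left out; in 22Rv-1, 16 were lower with limma. Total counts moved the median of all genes in C4-2 to 0.15, and the share of calls that were higher to 67.2% (65.6% with limma), against 50.03%; in 22Rv-1 that share was 58.5%, against 49.8%. With GENCODE lengths, added after seeing the data, RELN over its receptors was 0.715 in C4-2 lv-ARv7, 3.58 in C4-2 lv-control, 0.915 in 22Rv-1 lv-shARv7 and 7.70 in 22Rv-1 lv-shcontrol, and LRP8 over VLDLR was 1.44, 0.566, 5.12 and 3.55 in the same groups.

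The replicate numbers did not pair the samples: same-numbered libraries had correlated deviations of -0.058 to 0.028 in C4-2 and -0.109 to 0.005 in 22Rv-1. The replicate block changed no call of LRP8 or VLDLR: LRP8 was 1.15 in C4-2 and 0.20 in 22Rv-1 (adjusted p 0.0348), and VLDLR was -0.21 and -0.33. As values with no call under the block, DAB1 was -2.85 in C4-2 and RELN -1.88 and -2.97. The differences of the responses under the block were -0.14 for VLDLR and -0.96 for LRP8, and those between the control cells -1.07 and 1.58. Depth limits DAB1 and DAB2, whose libraries held at most 23 counts.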
